A study of Mus musculus with 52 samples.

Results

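Among 52 single bone marrow cells, 33 carried the erythroid regulator Klf1 without the progenitor antigen gene Cd34, and they were ranked by how much RNA of mitosis they held. The members were chosen by their measured RNA. Of 52 cells, 49 were kept for having 50000 reads or more, 1000 detected genes or more and mitochondrial reads of no more than 20%. Members were those of the 49 with Klf1 at 200 CPM or above and Cd34 below 10 CPM. CPM scales a count by the reads of its cell, with no correction for transcript length, so levels of different genes are not compared. The mitotic score of a cell was its mean log2(CPM + 1) over 6 genes, Ccnb1, Ccnb2, Cdc20, Plk1, Cenpf and Aurka. The 11 members with the highest scores are called high-score cells below, the 11 with the lowest are called low-score cells, and the 11 between them are shown as the middle cells.

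All cells came from 1 labelled group, primed HSCs (haematopoietic stem cells), taken from the bone marrow of C57BL/6 mice aged 6 to 8 weeks with the genotype Cd4-cre;R26Tdtomato. This pairs a Cre recombinase driven by Cd4 with a tdTomato reporter that Cre turns on, and every cell of the series shares this genotype. Each library was made from 1 cell by Smart-seq2, a plate method that copies full-length cDNA and uses no molecular identifiers. The labels name no animal, no sort gate and no control group, so the data are 1 sample with no replicate. Cells of 1 sample are not replicates of a condition, so no p-value or standard error is given. Every interval is a binomial one on a count of cells. It treats cells as independent draws and does not cover differences between animals. Nor does it cover the choice of genes by the size of their difference, so intervals set side by side are no test.

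A dividing cell makes its replication genes around the passage from G1 into S phase, largely under E2F transcription factors. It makes its mitotic genes later, in G2 and M, when cyclin B with Cdk1, the kinases Plk1 and Aurka and the activator Cdc20 of the anaphase-promoting complex drive entry into and exit from mitosis. Many mitotic promoters carry a short element called CHR, often beside CCAAT boxes bound by NF-Y. Early erythroid progenitors divide quickly while they begin to make red cell proteins.

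The label of these cells was checked against marker genes. Gata1, the factor that drives erythroid genes with Klf1, reached 10 CPM in 33 of 33 members (105 to 1007 CPM). The carbonic anhydrase genes Car1 and Car2 and the water channel gene Aqp1 did so in all 33 as well, Tspo2 in 32, the erythropoietin receptor gene Epor in 31, Gfi1b in 30 and the transferrin receptor gene Tfrc in 28. Of the markers listed for stem-like and early progenitor cells, Flt3 reached 10 CPM in 0 members, Hlf and Mecom in 2 each, Erg in 5 and Meis1 in 8. Car1 and Car2 also reached 10 CPM in all 16 other kept cells, so at that cut they do not set members apart. Among these 16 cells Gfi1b did so in 8, Aqp1 in 7, Gata1 and Tfrc in 6 each, Epor in 4 and Tspo2 in 1. The stem-like and progenitor markers did so in 14 (Meis1), 13 (Erg), 12 (Hlf) and 4 each (Mecom and Flt3), so Mecom and Flt3 set members apart little. Cell 15 stood farthest from the label, with the members' highest Meis1 (408 CPM), Mecom and Erg and their lowest Gata1 (105 CPM), Aqp1 and Tspo2.

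Some libraries stood apart. Cells 6 and 13 resembled each other far more than other members did, with a Pearson correlation of log2 values over the genes compared of 0.921 against a median of 0.497 over 528 pairs, and both were high-score cells. The next pair, cells 23 and 25, reached 0.705. Cells 22 and 44 were the shallowest members, with 140785 and 113234 reads, 1 of them high-score and 1 low-score. In their titles 3 members have a library code that starts with F (cells 6, 11 and 13, all high-score), 1 has R and 29 have Y. The titles do not say what the letters stand for, and none of the 52 codes was shared. Values without them stand beside the list medians of mitotic and replication genes.

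Depth was similar in the groups. Total reads had a median of 2887968 in high-score, 3099607 in middle and 2556759 in low-score cells. Genes with a read had medians of 7466, 7683 and 7341, and with every member thinned to 113234 reads 6074, 6361 and 5697. The mitochondrial share of reads had medians of 3.45%, 3.42% and 3.44%, and the share of ribosomal protein genes 9.47%, 8.62% and 9.20%. Over the 33 members the Spearman correlation of the score was 0.033 with total reads and 0.129 with genes in thinned cells.

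The score itself ran from 8.79 in cell 29 to 0.234 in cell 50, with a median of 6.76. The groups were selected on these values, which are given as a description. The lowest high-score cell, cell 22, stood at 7.38 and the next one down, cell 38, at 7.28. The highest low-score cell, cell 24, stood at 5.64 and the one above it, cell 19, at 5.79, so neither border fell in a gap. The scores of low-score cells were the more spread, at 3.48 ± 1.88 (SD, n = 11 cells), against 7.84 ± 0.425 in high-score cells. The Klf1 gate did fall in a gap, between 197 CPM in the highest kept cell under it and 402 CPM in the lowest member. Cd34 was at most 0.988 CPM in members and 91.02 CPM in cell 2, the 1 kept cell that met the Klf1 gate and failed the Cd34 gate. The 15 kept cells under the Klf1 gate had scores of 0 to 5.0 with a median of 2.13.

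The 6 score genes set the groups, so their values are a description of the selection. Ccnb1 was at 155 to 1046 CPM in high-score cells (median 372) and at 0 to 286 CPM in low-score cells (median 86.2), a difference of 3.51 on the log2 scale. In high-score cells Plk1 ranged from 108 to 652 CPM with a median of 334, and in low-score cells from 0 to 133 CPM with a median of 0.391 (difference 5.73). The Aurka level spanned 54.1 to 496 CPM (median 160.1) in high-score and 0 to 90.4 CPM (median 0) in low-score cells, and the log2 difference was 5.99. Of the 11 low-score cells, 8 had Ccnb1, 6 Ccnb2 and 9 Cdc20 at 10 CPM or more. Plk1, Cenpf and Aurka were at that level in 5, 4 and 2. Such counts depend on the level of each gene, so they do not rank the genes. Over the 33 members the 15 pairs of score genes had Spearman correlations of 0.314 to 0.776 with a median of 0.487.

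**Figure D1:**
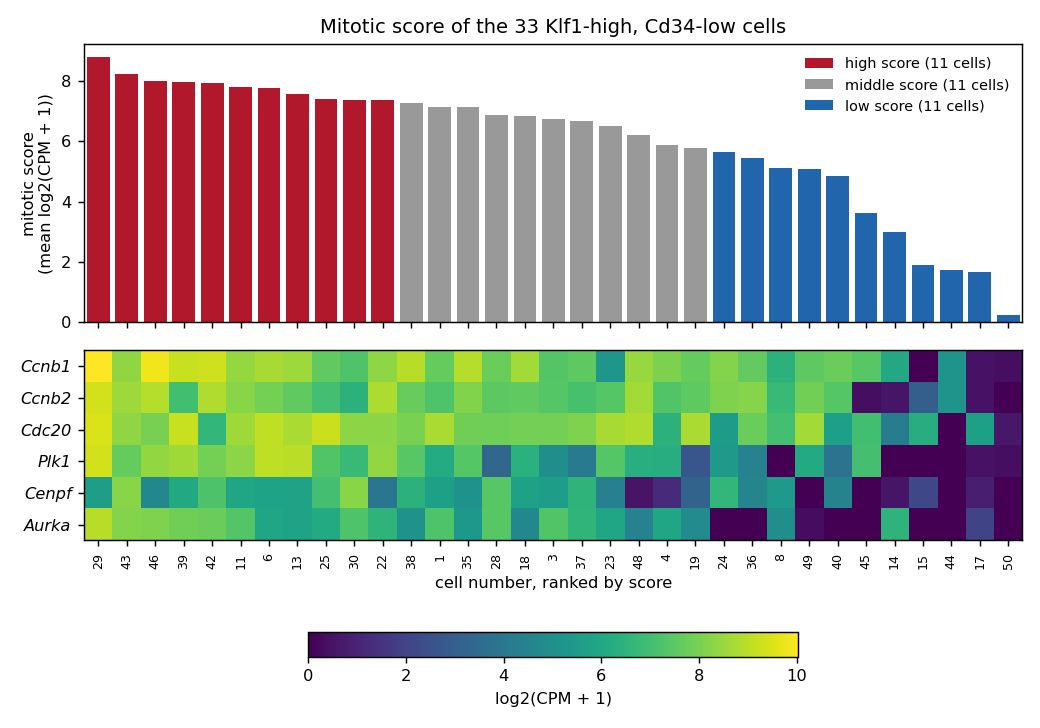
Mitotic score of each of the 33 members (upper panel, bars, mean log2(CPM + 1) of 6 genes) and log2(CPM + 1) of each score gene (lower panel, colour), with cells ranked by score on the horizontal axis. The score falls slowly from 8.79 to 4.85 and then steeply to 0.234, and Aurka and Plk1 are near 0 in several low-score cells.

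Promoter sequence was described for the score genes and the replication genes. Promoters came from RefSeq on GRCm38.p6 and covered 250 bases before to 50 after each gene's start. The CHR letters TTTGAA were found, on either strand, in 5 of the 6 score gene promoters, all but that of Ccnb1, and CCAAT in 6 of 6. The nearest match to the start in each is shown in capitals within 30 bases, 5′ to 3′ on the gene's strand.
Cdc20 (chr4:118437344-118437373, minus strand): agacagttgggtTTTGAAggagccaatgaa
Plk1 (chr7:122159453-122159482, plus strand): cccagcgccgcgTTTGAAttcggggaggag
Ccnb2 (chr9:70421533-70421562, minus strand): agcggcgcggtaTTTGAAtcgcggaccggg
Aurka (chr2:172370521-172370550, minus strand): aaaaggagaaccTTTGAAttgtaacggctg
Cenpf (chr1:189688067-189688096, minus strand): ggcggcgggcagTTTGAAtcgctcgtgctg
All 5 matches lay within 33 bases of the annotated start. Cdk1, the 1 gene outside the score whose groups did not overlap (below), carried the same letters 15 bases before its start and a TTTNNCGC match 29 bases before it.
Cdk1 (chr10:69352910-69352939, minus strand): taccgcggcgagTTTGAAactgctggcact

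Over the whole window the replication genes more often carried the E2F letters TTTNNCGC, shown in capitals for 4 genes that were lower in high-score cells. Matches on the other strand read GCGNNAAA, as in Pole2.
Mcm6 (chr1:128359734-128359763, minus strand): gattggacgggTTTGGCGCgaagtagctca
Cdt1 (chr8:122568035-122568064, plus strand): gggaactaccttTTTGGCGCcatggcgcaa
Uhrf1 (chr17:56303270-56303299, plus strand): gccccacttgcTTTCTCGCttcccgccaca
Pole2 (chr12:69228162-69228191, minus strand): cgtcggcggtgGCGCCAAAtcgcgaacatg
TTTGAA was present in 67.2% of 64 promoters of the 3 mitotic lists described below, in 16.2% of 74 promoters of the 4 replication lists and in 12.2% of 9150 promoters of all genes compared. TTTNNCGC was present in 14.1%, 37.8% and 9.10% of the same promoters, and CCAAT in 76.6%, 52.7% and 38.6%. None of the 6 score gene promoters held TTTNNCGC. Single genes went against these shares, with TTTGAA in Cdc7, Dbf4 and E2f8 of the replication lists and TTTNNCGC in Ncapg of the mitotic lists. Over all 32851 promoters of the table the shares were 17.9% for TTTGAA, 5.17% for TTTNNCGC and 37.4% for CCAAT. The table held 60 of the 75 mitotic and 61 of the 76 replication genes, some with more than 1 start. In the 150 bases before the start alone the contrast was smaller. There TTTGAA was present in 34.4% of the mitotic, 9.46% of the replication and 5.50% of all compared promoters, and in 1 of 6 score gene promoters, since 4 of the 5 matches lie after the start. TTTNNCGC was present there in 12.5%, 16.2% and 4.93%, so the mitotic and replication lists were close. By their letters TTTGAA and TTTNNCGC cannot share bases on either strand. A match to these letters is a description of the window and not evidence of binding.

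Which genes outside the score moved with it was then described. The measure was the difference in mean log2(CPM + 1), high-score minus low-score cells, over the 9123 genes that averaged 5 CPM or more and were read in 5 or more members. The text calls a gene higher or lower where this difference was at least 1 in size. By this rule 1879 genes (20.6%) were higher and 1097 (12%) lower in high-score cells, and the median over all genes compared was 0.17. These shares are the background for every count below. Cells with 0 reads of a gene weigh heavily in such a difference, so the number of cells at 10 CPM or more is given for several genes. With log2(CPM + 10) in its place 591 genes (6.48%) were higher and 327 (3.58%) lower, and with the members split into 2 equal groups 1174 were higher.

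Mitotic genes outside the score were higher in high-score cells in all 3 lists. Of 75 genes in 3 lists, 61 were higher, 0 were lower and 14 lay between, with a median difference of 2.89. By list, 20 of 26 mitotic kinases and regulators were higher (median difference 2.50), 25 of 25 spindle and cytokinesis genes (3.32) and 16 of 24 chromosome and centromere genes (2.45). The mean log2(CPM + 1) over these 75 genes was 5.65 to 6.63 in high-score and 1.54 to 5.52 in low-score cells, and the groups did not overlap. The score was built from 6 genes of the same process in the same cells, so this is a description and no test. Over the 29 members with a Y code the 3 list medians were 2.97, 3.29 and 2.28, and without cells 6 and 13 they were 3.06, 3.22 and 2.55.

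Among the kinases and regulators, Cdk1 was at 174 to 524.1 CPM in high-score cells (median 272) and at 0 to 146 CPM in low-score cells (median 34.7), a difference of 3.92 on the log2 scale. Every high-score cell was above every low-score cell, and this was the 1 gene of 9123 for which that held. Mean Cdk1 was 6.28-fold higher in high-score cells (301 ± 119.7 against 47.9 ± 48.5 CPM, SD over 11 cells each). In the middle cells its median was 277 CPM, no lower than in the high-score cells. Cdk1 lies at chromosome 10, 69335146 to 69352938, minus strand (GRCm38).

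For Ube2c the median was 475 CPM in high-score cells (range 121 to 1078) and 23.8 CPM in low-score cells (range 0.56 to 156), which gave a difference of 4.62. This gene encodes the ubiquitin-conjugating enzyme of the anaphase-promoting complex, and 10 of the 11 high-score cells exceeded every low-score cell. Its median in the middle cells was 67.6 CPM, unlike that of Cdk1, which was near equal in both. Ccnf was at 0 to 556 CPM in high-score cells (median 216) and at 0 to 92.8 CPM in low-score cells (median 0.28), a difference of 4.77 on the log2 scale. It encodes cyclin F, a ubiquitin ligase subunit of G2, and the groups overlapped. In high-score cells Aurkb ranged from 107 to 464 CPM with a median of 217, and in low-score cells from 0 to 177 CPM with a median of 33.3 (difference 4.11). Aurora B, its product, is the kinase of the chromosomal passenger complex.

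The other 6 kinases and regulators lay between the limits, and they were Wee1, Mybl2, Foxm1, Pttg1, Pkmyt1 and Mastl. The Pkmyt1 level spanned 0 to 150.2 CPM (median 57.8) in high-score and 0 to 246 CPM (median 64.3) in low-score cells, and the log2 difference was 0.20. Wee1 and Pkmyt1 encode kinases that hold Cdk1 inactive, and their differences were 0.98 and 0.20. Mybl2 and Foxm1 encode transcription factors of the mitotic programme, and Foxm1 had medians of 0, 16.5 and 0 CPM in high-score, middle and low-score cells.

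Many genes of the spindle list were hardly read in low-score cells. For Kif11 the median was 216 CPM in high-score cells (range 66.3 to 489.5) and 0.292 CPM in low-score cells (range 0 to 242), which gave a difference of 5.48. Kif11 encodes the motor that pushes the spindle poles apart, and it reached 10 CPM in 11 of 11 high-score and 4 of 11 low-score cells. Kif22 was at 35.5 to 439.6 CPM in high-score cells (median 254) and at 0 to 169.7 CPM in low-score cells (median 0.284), a difference of 5.21 on the log2 scale. In high-score cells Kif23 ranged from 0 to 407 CPM with a median of 65.4, and in low-score cells from 0 to 55 CPM with a median of 0 (difference 4.62). Kif23 encodes a motor of the central spindle, and its median in middle cells was 0.518 CPM, with 9 high-score, 4 middle and 1 low-score cells at 10 CPM or more. The differences of Kif20a, a cytokinesis motor, and of the spindle assembly factor Tpx2 were 4.86 and 3.43, although 1 low-score cell reached 520.3 CPM of Kif20a.

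The chromosome list held genes of the passenger complex, of condensin and of the centromere. The Incenp level spanned 78.1 to 306 CPM (median 138) in high-score and 0 to 204 CPM (median 1.17) in low-score cells, and the log2 difference was 5.23. Incenp, Cdca8 and Birc5 encode partners of Aurora B, and their differences were 5.23, 4.45 and 3.16. For Cdca3 the median was 154 CPM in high-score cells (range 36.5 to 356) and 0 CPM in low-score cells (range 0 to 102), which gave a difference of 4.76. The DNA topoisomerase gene Top2a and the proliferation marker gene Mki67 were in contrast found at 10 CPM or more in 10 of 11 low-score cells. Top2a was at 554 to 1179 CPM in high-score cells (median 717) and at 1.17 to 1264 CPM in low-score cells (median 67.9), a difference of 3.38 on the log2 scale. The highest Top2a of all 33 members was in cell 36, a low-score cell. Mki67 had medians of 437 CPM in high-score, 407 in middle and 112 in low-score cells, a difference of 2.58. The condensin genes Ncapd2 and Ncaph (differences 0.75 and 0.49) and the chromatin protein gene Hmgb2 (0.59) stayed between the limits.

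Replication genes went the other way in part. Of 76 genes in 4 lists 75 could be compared, of which 29 were lower in high-score cells, 7 were higher and 39 lay between, with a median difference of -0.58. By list, 7 of 16 genes of origin licensing and firing were lower and 2 higher (median difference -0.90), 16 of 35 of the fork and chromatin assembly were lower and 3 higher (-0.85), 4 of 11 G1/S regulators were lower and 2 higher (-0.72), and 2 of 13 genes of nucleotide supply were lower and 0 higher (-0.05). The background was 12% lower and 20.6% higher. Without cells 6 and 13 the first 3 list medians were -1.29, -0.74 and -1.16 (G1/S regulators), and over the cells with a Y code -1.18, -0.55 and -1.35. The fork median shrank to -0.39 without the shallow cells 22 and 44. It was -0.47 without the 5 members with Meis1 over 50 CPM and -0.27 with Plk1 left out of the score. That of nucleotide supply was 0.10 without cells 22 and 44.

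Among the genes of the fork was Ung, the uracil-DNA glycosylase that removes uracil behind the fork. In high-score cells Ung ranged from 0 to 0.0803 CPM with a median of 0, and in low-score cells from 0 to 554 CPM with a median of 88.1 (difference -5.87). No high-score cell reached 10 CPM (0 of 11, exact Clopper-Pearson 95% interval 0 to 28.5%). Low-score cells did so in 8 of 11 (72.7%, 39 to 94%) and middle cells in 6 of 11. The Uhrf1 level spanned 0 to 179 CPM (median 17.8) in high-score and 0.584 to 1342 CPM (median 300.2) in low-score cells, and the log2 difference was -4.23. Uhrf1 brings the maintenance methyltransferase to new DNA. For Pcna the median was 149 CPM in high-score cells (range 0 to 407) and 635 CPM in low-score cells (range 139.8 to 1139), which gave a difference of -2.13. Pcna, the sliding clamp of the polymerases, was at 0 reads in 1 high-score cell and overlapped between the groups. Chaf1b was at 0 to 122 CPM in high-score cells (median 49.2) and at 61.1 to 556 CPM in low-score cells (median 168), a difference of -2.99 on the log2 scale. It encodes a subunit of the chromatin assembly factor that loads histones behind the fork.

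At the origins, the licensing factor gene Cdt1 and part of the Mcm helicase were lower. In high-score cells Cdt1 ranged from 0 to 114 CPM with a median of 35.5, and in low-score cells from 0.905 to 594 CPM with a median of 283 (difference -3.05). The Mcm4 level spanned 0 to 205 CPM (median 86.4) in high-score and 188 to 761 CPM (median 419) in low-score cells, and the log2 difference was -2.63. For Mcm6 the median was 382 CPM in high-score cells (range 249 to 817) and 956 CPM in low-score cells (range 249 to 2250), which gave a difference of -1.16. The 6 helicase subunits did not move alike, with differences of -1.54 for Mcm2, -0.92 for Mcm3, -0.11 for Mcm5 and 0.10 for Mcm7 beside those of Mcm4 and Mcm6. Dbf4 and Cdc7, which encode the 2 parts of the kinase that fires origins, moved in opposite directions. Dbf4 was at 0 to 212 CPM in high-score cells (median 123) and at 0 to 139 CPM in low-score cells (median 3.62), a difference of 2.79 on the log2 scale. In high-score cells Cdc7 ranged from 0 to 218 CPM with a median of 0.346, and in low-score cells from 0 to 286 CPM with a median of 66.9 (difference -2.45). The licensing inhibitor gene Gmnn lay between the limits, at medians of 72.4, 141 and 151 CPM in high-score, middle and low-score cells.

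Of the regulators of S phase entry, Ccne2, Cdc25a, E2f1 and Cdk2 were lower and E2f8 and Rb1 higher. The Ccne2 level spanned 0 to 13.9 CPM (median 0) in high-score and 0 to 123 CPM (median 16.2) in low-score cells, and the log2 difference was -2.52. For Cdk2 the median was 3.8 CPM in high-score cells (range 0 to 206) and 113 CPM in low-score cells (range 22.1 to 335), which gave a difference of -3.24. The kinase Cdk2 is the partner of cyclin E. Ccne1, the other cyclin E gene, had medians of 63.9 and 104 CPM and a difference of -0.50. E2f1 was at 0 to 84.9 CPM in high-score cells (median 0.228) and at 0.476 to 182 CPM in low-score cells (median 11.1), a difference of -2.13 on the log2 scale. E2f8, a repressor of the E2F family that acts after S phase entry, had a difference of 2.0 in mean log2 values. It reached 10 CPM in 10 of 11 high-score and 5 of 11 low-score cells, with medians of 115 and 8.07 CPM. In mean CPM E2f8 went the other way, at 118 in high-score and 132 in low-score cells. For E2f8, 2 low-score cells exceeded every high-score cell, and its rank correlation with the score was 0.074.

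In nucleotide supply, the gene of a subunit of ribonucleotide reductase was lower. In high-score cells Rrm2 ranged from 0 to 129.6 CPM with a median of 59.8, and in low-score cells from 0.584 to 971 CPM with a median of 233 (difference -2.50). Rrm1, the gene of the other reductase subunit, had a difference of 0.52 in mean log2 values. In CPM it went the other way, with medians of 529 and 805 and means of 554 and 631 in high-score and low-score cells. The lowest low-score cell was at 0.877 CPM. Tyms, Tk1 and Dut lay between the limits, with differences of -0.11, 0.09 and -0.47.

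Set against each other, the mitotic and replication lists did not run along 1 line. The mean log2(CPM + 1) over the replication lists was 4.33 to 5.71 in the 11 high-score cells. It lay above all of these in 8 of 11 middle and 8 of 11 low-score cells, where it reached 7.32 and 7.15. Of the middle cells, 6 were high on both, with replication above every high-score cell and mitotic genes above every low-score cell. Cells 38, 35 and 3, also middle cells, had replication levels of 4.84, 4.70 and 4.49, within the range of the high-score cells. Over the 33 members the Spearman correlation of the score was 0.893 with the mitotic and -0.395 with the replication lists. These are descriptions over cells that share 1 preparation.

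The low-score cells differed among themselves. Cells 15 and 50 were under every high-score cell in replication genes (3.94 and 3.45) as well as low in mitotic genes (2.26 and 1.54). They differed from each other in Car1, with 377 CPM in cell 15 and 11825 CPM in cell 50, and in Meis1, with 408 CPM in cell 15 and 0 reads in cell 50. The other 9 had replication levels of 5.71 to 7.15. Cell 36 was low in the score (5.43) but had a mitotic list mean of 5.52, near the lowest high-score cell.

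**Figure D2:**
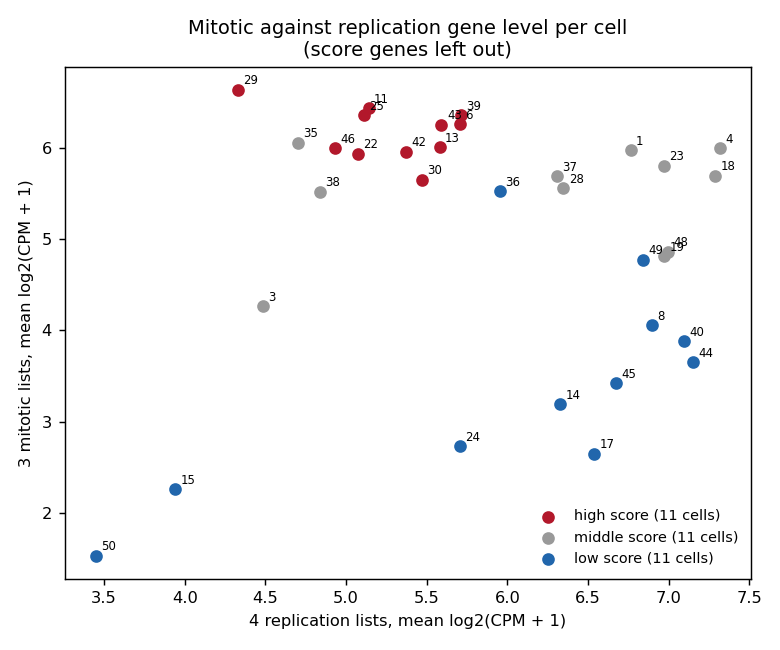
Mean log2(CPM + 1) of the 3 mitotic lists (vertical axis) against that of the 4 replication lists (horizontal axis), each point 1 of 33 cells, labelled with its number and coloured by score group. High-score cells sit at 5.65 to 6.63 on the mitotic axis and at most 5.71 on the replication axis, most low-score cells lie to the right and below, and cells 15 and 50 are low on both.

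**Figure D3:**
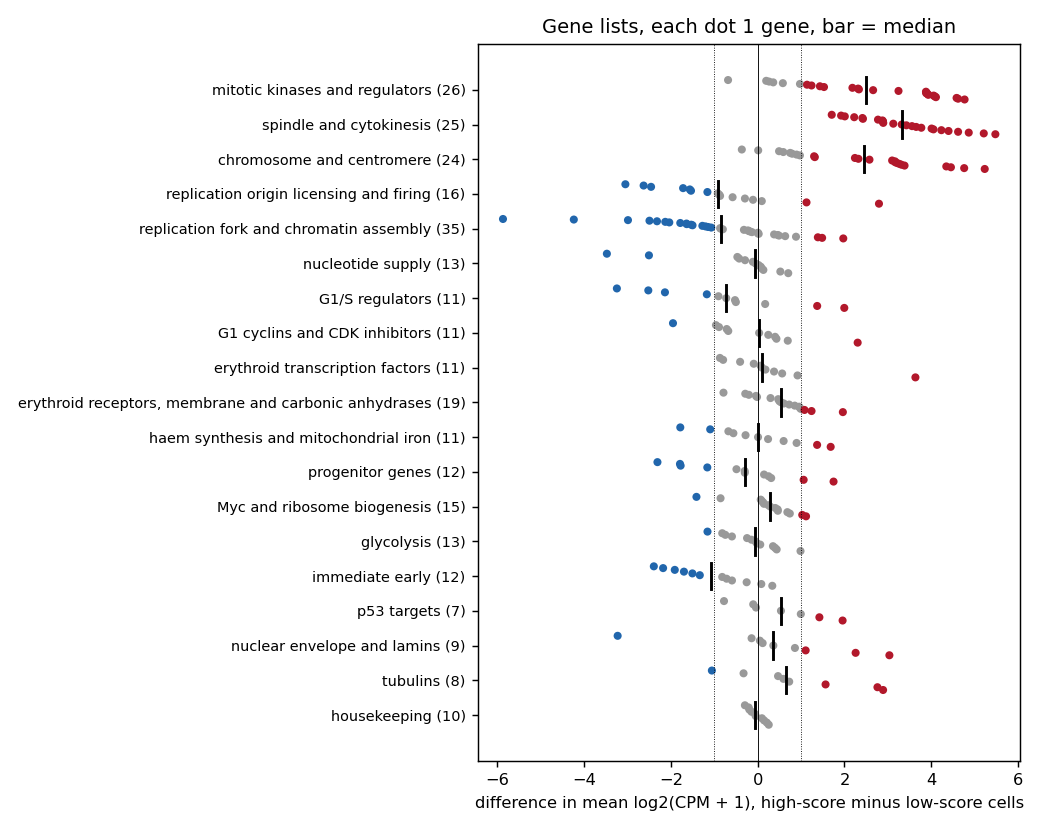
Difference in mean log2(CPM + 1), high-score minus low-score cells (horizontal axis), for each gene of the lists with at least 7 genes compared (number in brackets). Dots are genes, red at 1 or more, blue at -1 or less, and the black bar is the list median. The mitotic lists lie to the right with medians of 2.45 to 3.32, the replication lists reach to the left, and housekeeping genes stay near 0.

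Cyclins and inhibitors of G1 moved little as a list. Of 14 genes 11 could be compared, with 1 higher, 1 lower and a median difference of 0.03. The Ccnd3 level spanned 0.965 to 302 CPM (median 69.3) in high-score and 0.584 to 558 CPM (median 272) in low-score cells, and the log2 difference was -1.95. It encodes a D-type cyclin with a known role in erythroid divisions. For Cdkn2c the median was 28.4 CPM in high-score cells (range 0 to 84.9) and 0 CPM in low-score cells (range 0 to 95.9), which gave a difference of 2.30. Cdkn2c encodes the inhibitor p18 of Cdk4 and Cdk6. Cdk6 and Cdk4 themselves had differences of 0.03 and 0.40. Cdkn1a, the p21 gene, was read at 10 CPM or more in 2 high-score and 1 low-score cell and was too rare to be compared, as were Cdkn1c and Ccnd1.

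Few erythroid genes passed the limit in either direction. Of 11 erythroid transcription factor genes, 1 was higher and 0 were lower, with a median difference of 0.10, near that of all genes. Gata1 was at 149 to 839 CPM in high-score cells (median 731) and at 105 to 1007 CPM in low-score cells (median 637), a difference of 0.10 on the log2 scale. In high-score cells Car1 ranged from 2426 to 10769 CPM with a median of 4706, and in low-score cells from 219.7 to 11825 CPM with a median of 6628 (difference 0.60). Both groups overlapped widely for each gene, and Car1 was low in single low-score cells, cells 15 and 40. Of 19 genes of receptors, membrane and carbonic anhydrases, 3 were higher and 0 lower (median difference 0.54, and 0.28 without the 5 members with Meis1 over 50 CPM), and these 3 were Rhd, Rhag and Kel, which encode blood group proteins. The Rhd level spanned 47.8 to 708.4 CPM (median 238) in high-score and 0 to 1031 CPM (median 185) in low-score cells, and the log2 difference was 1.96. The groups overlapped for Rhd, and the differences of Rhag (1.24) and Kel (1.08) changed sign under other settings. Epor had a difference of 0.99 (medians of 196 and 144 CPM) and Tfrc of -0.01. In haem synthesis 2 of 11 genes were higher and 2 lower, with a median difference of 0.01. Fech and Slc25a38 were the 2 higher ones and changed sign under other settings, and Uros and Abcb10 the 2 lower. Of the adult globin genes, Hba-a1 reached at most 24.5 CPM in high-score and 18.7 CPM in low-score cells, and its reads cannot be told apart from those of the near-identical Hba-a2.

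The exception was Klf3, a Klf1 target whose product represses many of the same promoters. For Klf3 the median was 47.3 CPM in high-score cells (range 0 to 299.6) and 1.43 CPM in low-score cells (range 0 to 80.6), which gave a difference of 3.63. It reached 10 CPM in 10 of 11 high-score cells (90.9%, exact 95% interval 58.7 to 99.8%), in 9 of 11 middle cells and in 2 of 11 low-score cells (18.2%, 2.28 to 51.8%). Klf1 itself, the gate gene, had medians of 794, 851 and 883 CPM in the 3 groups. Over all settings tried the difference of Klf3 ranged from 2.0 to 4.65.

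**Figure D4:**
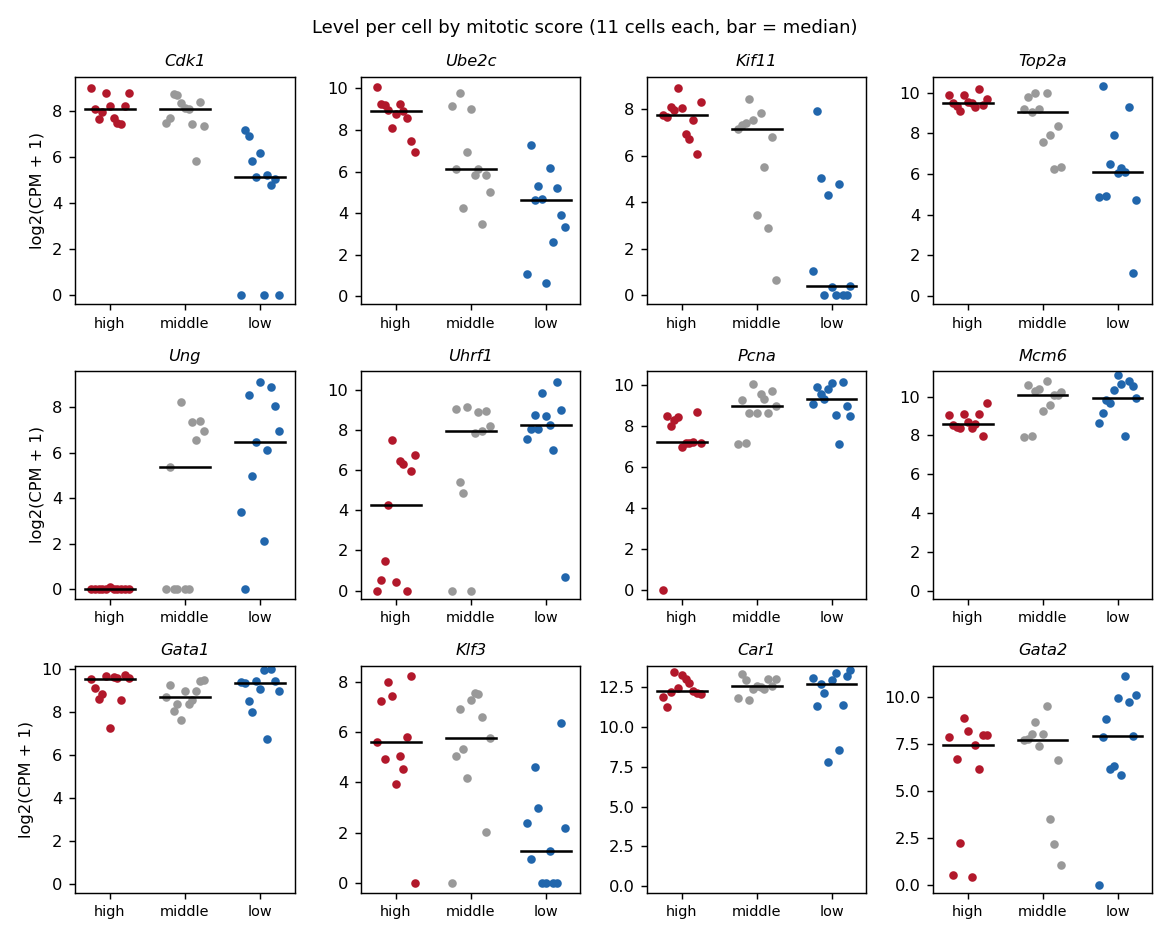
log2(CPM + 1) of 12 genes (vertical axes) in high-score, middle and low-score cells (11 each), points are cells and bars are medians. Cdk1 of the first row is the 1 gene with no overlap between high-score and low-score cells, the medians of the 4 replication genes in the second row are lowest in high-score cells, and in the third row Gata1 and Car1 overlap while Klf3 is low in most low-score cells.

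Progenitor genes had no common direction. Of 17 listed genes 12 could be compared, of which 2 were higher and 4 lower, with a median difference of -0.30 (-0.08 without the 5 members with Meis1 over 50 CPM). Kit was at 214 to 1195 CPM in high-score cells (median 440.2) and at 168 to 1389 CPM in low-score cells (median 486), a difference of -0.30 on the log2 scale. In high-score cells Gata2 ranged from 0.346 to 482 CPM with a median of 177, and in low-score cells from 0 to 2221 CPM with a median of 239.8 (difference -1.77). Gata2 encodes the stem and progenitor GATA factor that Gata1 replaces, and its highest level, 2221 CPM, was in cell 15. With the members split into 2 equal groups its difference was -0.18. The Cd48 level spanned 0 to 59.6 CPM (median 0.965) in high-score and 0 to 147 CPM (median 67.8) in low-score cells, and the log2 difference was -2.31. For Runx1 the median was 40.4 CPM in high-score cells (range 0.346 to 159) and 0.264 CPM in low-score cells (range 0 to 377), which gave a difference of 1.75. Cd48 encodes a surface protein of progenitors and Runx1 a transcription factor of all blood lineages.

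Immediate early genes, which cells switch on within minutes of a stimulus or of handling, were lower in part. Of 12 genes compared 6 were lower in high-score cells and 0 higher, with a median difference of -1.07. Ier2 was at 22.3 to 664 CPM in high-score cells (median 80.5) and at 91 to 2884 CPM in low-score cells (median 302), a difference of -1.70 on the log2 scale. In high-score cells Dusp1 ranged from 0 to 1136 CPM with a median of 368, and in low-score cells from 106 to 4521 CPM with a median of 586 (difference -1.91). The Egr1 level spanned 0 to 161 CPM (median 5.25) in high-score and 0.294 to 1205 CPM (median 46.6) in low-score cells, and the log2 difference was -2.18. The groups overlapped for each of them, and Fos had a difference of -0.59 at medians of 534, 296 and 805 CPM. With 2 equal groups the list median was -0.15 and the difference of Ier2 was -0.0043.

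Over all genes compared, 8 of the 10 with the largest positive difference at a mean of at least 20 CPM were members of the mitotic lists. The other two were Ankle1, a nuclease gene, and Shcbp1, a gene of the midbody. For Ankle1 the median was 172 CPM in high-score cells (range 15.2 to 477) and 0 CPM in low-score cells (range 0 to 141), which gave a difference of 5.0. Of the 10 with the largest negative difference 3 were replication list genes, Ung and Uhrf1 among them. Pask was at 0 to 0.95 CPM in high-score cells (median 0) and at 0 to 143 CPM in low-score cells (median 32.1), a difference of -4.46 on the log2 scale. Pask encodes a PAS domain kinase. Pidd1, which encodes the core of a caspase-2 activating complex, had 0 reads in all 11 high-score cells, so no fold is given. It reached 10 CPM in 7 of 11 low-score cells, at up to 174 CPM, and in 9 of 11 middle cells. Unc119, Ppm1f, Paqr4 and Gpatch2l were also among these 10, with differences of -3.87, -3.81, -3.72 and -3.66. In high-score cells Unc119 ranged from 0 to 139.6 CPM with a median of 0.161, and in low-score cells from 0.425 to 327 CPM with a median of 95.9 (difference -3.87). The groups overlapped for Unc119.

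Genes of other cell types were read in both groups. Of those that could be compared, 2 of 3 B lineage genes (Cd79b and Igkc) and 1 of 4 dendritic genes (Tcf4) were higher in high-score cells. Lower were 2 of 3 neutrophil and monocyte genes (Lyz2 and Fcer1g) and 2 of 4 megakaryocyte genes (Itga2b and Cd9). These are few genes beside a background of 20.6% higher and 12% lower. Itga2b had a median of 0 in both groups and reached 10 CPM in 2 high-score and 3 low-score cells. Over all settings tried its difference ranged from -2.22 to 0. The summed CPM of 11 neutrophil and monocyte genes was 0 to 82 CPM (median 0.829) in high-score and 0.264 to 552 CPM (median 12.7) in low-score cells, and Elane, Ctsg and Ngp were at 0 in every member. The Lyz2 level spanned 0 to 0.829 CPM (median 0) in high-score and 0 to 415 CPM (median 0.951) in low-score cells, and the log2 difference was -2.98. The sum of 8 B lineage genes was 0 to 748 CPM (median 14) and 0 to 202 CPM (median 3.21), that of 8 megakaryocyte genes 1.66 to 316 CPM (median 18.4) and 2.94 to 1330 CPM (median 52.7), and that of 7 dendritic cell genes 105 to 679 CPM (median 228) and 6.14 to 384 CPM (median 113). Pax5 of the B lineage, Siglech of the dendritic and Gp1bb and Ppbp of the megakaryocyte genes were at 0 in every member. Cd3e, Cd4, Trbc2, Bcl11b and Tcf7 of the 8 T lineage genes and 4 of the 6 mast cell and basophil genes were at 0 in every member, and so were 7 of 10 genes of other organs. The part of such transcripts in the results was not tested.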

How the data were processed

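Smart-seq2 libraries of 52 single cells, all 1 group, were described. The authors deposited 1 table of estimated counts per gene, of which 4.23% of values are not whole. The authors made these estimated counts with Trim Galore 0.5.0 and Salmon 0.03.1 on GRCm38, per the submitters' processing notes. How transcripts were summed to genes, from which set, and whether strand was used is not given in the sources used here. Estimated counts share reads among near-identical, overlapping and antisense genes, whose values are uncertain.

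Counts were rounded and scaled to CPM (Python 3.11.15, pandas 2.3.3, numpy 2.4.6, scipy 1.17.1). Symbols were matched for 27728 of 28786 gene identifiers (96.3%). Members had 113234 to 12446477 reads. Without molecular identifiers reads are not independent molecules. The binomial intervals are on counts of cells and do not cover this. Cells are not replicates, so no test was made. No doublet caller was run, since 52 wells are too few for one. The cell ranking, the 27 gene lists and the cell filters were chosen with earlier results of these data known. Named genes were a preset set, up to 4 per list with the largest difference at a mean of 20 CPM or more, and the 10 highest and 10 lowest of all genes by that measure. Further genes named inside a list's count were chosen after their values were seen. Promoter sequences came from RefSeq (GRCm38.p6) and the Cdk1 position from GENCODE. The code was tested on simulated data. Alternatives were other gates, splits, filters, pseudocounts, scaling, thinning, scores without 1 gene and cells left out. Leaving out the shallow cells, the members with Meis1 over 50 CPM, and the cells without a Y code were alternatives chosen after seeing the data. Some genes that the naming rule selects are not reported here.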

Additional observations from a re-analysis of the deposited data

Results flagged for a closer look

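Cells outside the ranking also held RNA of the 6 score genes. Cell 2, the kept cell with Klf1 at 1160 CPM and Cd34 at 91.02 CPM, had a mitotic score of 8.12 from 7481542 reads, within the range of the high-score cells. Cell 5, left out for its 28.3% of mitochondrial reads, had a score of 8.71 and Klf1 at 605 CPM from 307220 reads. Cell 12, left out for its 32439 reads, had a score of 7.08 that rested on 29 reads of score genes. Cell 10, left out for its 39692 reads, had a score of 1.73 from 3 reads of score genes. Cells 5 and 12 entered only the alternative with no cell filter, in which 1688 genes were higher and 1305 lower. What sets these values was not tested.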

How the results depend on the processing

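No paired analysis was possible because all cells belong to 1 group and carry no pairing. With the members split into 2 equal groups 1174 genes were higher and the spindle median was 2.139. With log2(CPM + 10), 591 genes were higher and 327 lower, and the kinase and spindle medians were 1.375 and 1.897. With a mean of 50 CPM or more 872 genes were higher and 355 lower of 4302, and the kinase median, at 3.877, exceeded the spindle median of 3.43. With a difference of medians the spindle median was 4.514. Rhag turned to -0.008309 with 2 equal groups and to -0.08983 over cells with a Y code. Slc25a38 turned to -0.1711 and -0.1602 in these and to -0.4987 in thinned cells. By medians, Kel turned to -0.4421, Fech to -0.292 and Slc25a38 to -0.243. The median over all genes lay between 0 and 0.07 with log2(CPM + 10), no filter on genes or on cells, or a difference of medians. The cause of these shifts was not tested. The differences of named genes changed sign 46 times in 2369 values, in 15 genes, and 8 of these were of the 4 genes past the limit given above. Of 23 alternatives 6 changed no named difference, and their unchanged values are counted among the 2369. Over all alternatives the median was 1.83 to 2.84 for the chromosome list, -1.39 to -0.64 for origins, -1.14 to -0.27 for the fork and -1.35 to -0.36 for G1/S regulators. Klf1 gates of 100 and 400 CPM chose 33 cells each, no read of Cd34 left 27 and no cell filter gave 35.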

Other observations

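Nuclear envelope genes had no common direction, with 3 of 9 higher in high-score cells, 1 lower and a median difference of 0.36 (0.15 without the 5 members with Meis1 over 50 CPM). Lmnb2 was at 0 to 170.5 CPM in high-score cells (median 0) and at 0 to 336 CPM in low-score cells (median 90.4), a difference of -3.22 on the log2 scale. It encodes lamin B2, and 8 of 11 middle cells reached 10 CPM. In high-score cells Nup37 ranged from 53.2 to 213 CPM with a median of 66.6, and in low-score cells from 0 to 69.6 CPM with a median of 15.1 (difference 3.03). Nup37 and Nup107 encode parts of the nuclear pore that also sit on kinetochores, and the difference of Nup107 was 2.26. Among 8 tubulin and stathmin genes compared 3 were higher and 1 lower (median difference 0.66). The Tuba1c level spanned 73.7 to 1224 CPM (median 519) in high-score and 0 to 487 CPM (median 113) in low-score cells, and the log2 difference was 2.89. Tubb4b and Tubb2a were higher by 1.56 and 2.76, and the gamma tubulin gene Tubg1 had a difference of -1.05. Tubulin genes resemble each other closely, so the split of reads among them is uncertain.

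Genes of growth and metabolism moved little as lists. Of 15 Myc and ribosome biogenesis genes 2 were higher (Polr1b and Wdr12) and 1 lower (Rrp1b), with a median difference of 0.29. Of 13 glycolysis genes 0 were higher and 1, Pfkl, was lower, with a median of -0.05 and 5 differences above 0. Tpi1 and Gpi1 lay between the limits, at -0.82 and -0.74. Their medians were 311 and 230 CPM in high-score cells and 603 and 569 CPM in low-score cells. The 10 housekeeping genes all lay between the limits (median -0.05). Of 7 p53 target genes compared 2 were higher, Mdm2 (1.42) and Phlda3 (1.96), and 0 lower. The median was 0.54, and 0.18 without cells 6 and 13. Mdm2 encodes the ubiquitin ligase that removes p53. Against the background of 20.6% higher and 12% lower, these counts are small numbers of genes.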
